A study of Mus musculus with 9 samples.

Results

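The comparison described here set a mouse embryonic fibroblast line with 1 working copy of Oga (Het, line code E4) against a line with both copies (WT, line code E8). It used 6 of the 9 arrays of the series, namely the 3 whose titles name the Het line and the 3 whose titles name the WT line, and every probe set on them that is not a control. Mouse embryonic fibroblasts, or MEFs, are cultures grown from embryos and consist mainly of fibroblasts. Both lines came from female embryos at E12.5, a stage counted in days after conception. The embryos came from crosses of heterozygous mice, which descended from a male with a floxed Oga allele on a background written as C57B1/6 and a female carrying MMTV-Cre, written as B6129-Tgn(MMTV-Cre)1Mam. MMTV-Cre places the Cre recombinase under a mammary tumour virus promoter, and whether the embryos or lines still carried Cre is not stated in the labels. A line from an Oga-deleted embryo (KO, line code E7) was measured on the other 3 arrays. It shares the WT arrays with this comparison, so its values are given only beside those of the Het line. Each genotype is represented by a single line, and the 3 arrays of a line are technical replicates. All p-values therefore cover the spread between arrays of a line, and genotype cannot be told apart from any other difference between the lines, including strain background.

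Oga encodes O-GlcNAcase, which takes the sugar O-linked N-acetylglucosamine (O-GlcNAc) off serines and threonines of nuclear and cytosolic proteins. Ogt encodes the transferase that adds it, from UDP-GlcNAc, the end product of the hexosamine pathway. The modification cycles on transcription factors, chromatin proteins, signalling proteins and metabolic enzymes, and it varies with nutrient supply. The comparison asks how the transcripts of a fibroblast culture differ when 1 of the Oga copies is lost.

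The values are log2 intensities from an expression array on which a gene may have several probe sets, each a group of short probes read as 1 value. Values of different probe sets are not compared in level, because probes differ in brightness. Pairs of WT arrays had correlations of 0.997 to 0.999, pairs of Het arrays 0.998 to 0.999 and mixed pairs 0.993 to 0.996. RNA integrity can be read from actin control probe sets at both ends of the transcript, and their 3' minus 5' value lay between 0.06 and 0.08 on the WT arrays and between 0.09 and 0.12 on the Het arrays. For GAPDH it lay between -0.09 and -0.07 on the WT arrays and between -0.0077 and 0.0041 on the Het arrays. The Het arrays were therefore higher for both controls without overlap, and the part of this in the results below was not tested.

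Oga was lower in the Het line at each of its 6 probe sets. The most abundant of them read 11.89, 11.92 and 11.95 on the WT arrays and 11.16 on each of the 3 Het arrays, against 6.03, 6.08 and 6.08 on the KO arrays. The Het arrays stood below all WT arrays and far above all KO arrays. The Het minus WT difference was -0.76 ± 0.044 (SE, n = 3 arrays per line), a 1.70-fold lower signal. The 3 probe sets next in brightness gave -1.20, -0.99 and -1.29, which lie on both sides of 2-fold. The 2 dimmest gave -0.43 (adjusted p = 0.0308) and -0.15 (adjusted p = 0.392). Ogt read 11.29, 11.26 and 11.31 in WT and 11.20, 11.15 and 11.15 in Het at its most abundant probe set. Its 5 probe sets differed by -0.18 to 0.23, and none passed the adjusted p in the fit of all probe sets (0.060 to 0.147). Eogt, whose product adds O-GlcNAc to secreted and membrane proteins in the endoplasmic reticulum, differed by 0.25, 0.38 and -0.25 at its 3 probe sets (adjusted p = 0.00502, 0.00319 and 0.0259), so its probe sets went both ways.

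**Figure D1:**
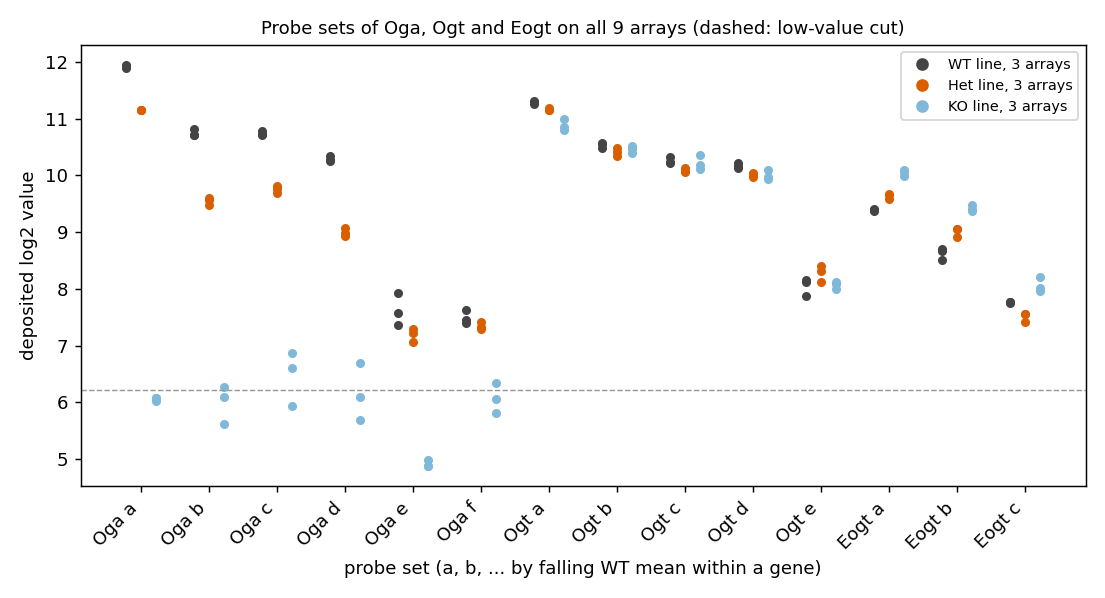
Deposited log2 values of every Oga, Ogt and Eogt probe set on all 9 arrays, with 3 points per line and the probe sets of a gene ordered by their WT mean; the dashed line marks the low-value limit of 6.22. At the first Oga probe set the Het arrays all sit at 11.16, below the WT arrays at 11.89 to 11.95, while the Ogt points of the Het and WT lines lie within 0.23 of each other on average.

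A gene was called when its limma adjusted p (Benjamini-Hochberg over 12962 genes) was below 0.05 and its difference reached 2-fold, and the words rose and fell are kept for such genes. Between the lines 33 genes were called, which is 0.255% of those tested: 7 rose (0.054%) and 26 fell (0.201%) in the Het line. Small differences were far more common. At the adjusted p alone 4458 genes differed (34.4%), of which 1736 were higher (13.4%) and 2722 lower (21%), and 61.7% of these were under 1.2-fold. The split by direction moves with the scaling: 38.9% of genes past the adjusted p were higher in Het on the deposited values, 48.9% after quantile normalization and 24.9% after centring each array on its median. The median difference over all genes was -0.01, and the middle 90% of genes lay between -0.35 and 0.25. The median SD between arrays of a line was 0.060, so a difference of 2-fold is many times the spread between arrays. At 1.5-fold 236 genes passed (1.82%), 70 higher (0.54%) and 166 lower (1.28%), and 203 of them were short of 2-fold. All 33 called genes had WT and Het arrays that did not overlap, but so did 47.7% of all genes tested (19.8% higher and 27.9% lower in Het). The shares of all genes in this paragraph are the background for the counts of every list below.

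**Figure D2:**
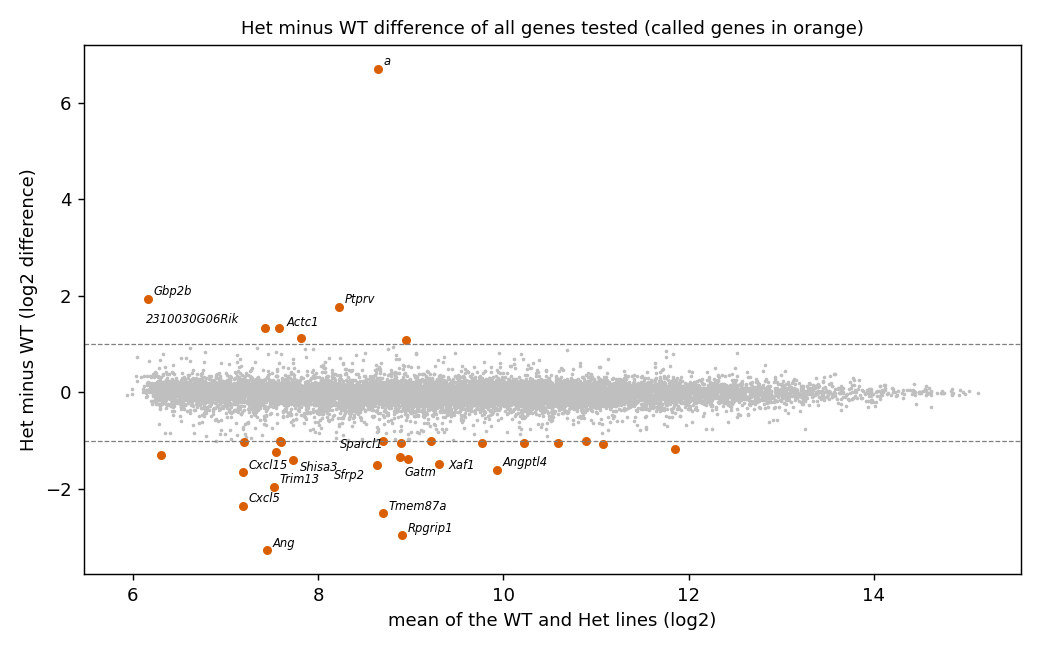
Het minus WT log2 difference of each of the 12962 genes against the mean of the WT and Het lines, with called genes in orange and dashed lines at 2-fold. The gene a stands alone at 6.70, the middle 90% of genes lie between -0.35 and 0.25, and more called genes lie below the lower line (26) than above the upper line (7).

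The 7 genes that rose were led by a, which encodes the agouti signalling protein, an antagonist of melanocortin receptors that sets the pigment made by hair follicles. It read 5.12, 5.32 and 5.44 on the WT arrays, 11.90, 11.99 and 12.09 on the Het arrays and 5.33, 5.46 and 5.48 on the KO arrays. Only the Het line stood above the low-value limit of 6.22, and its difference from WT was 6.70 ± 0.080 (adjusted p = 2.4e-12). Other genes of its pathway differed far less. Of 12 measured genes of pigmentation and melanocortin signalling 2 were higher and 2 lower at the adjusted p, and a was the only one called. The median of this list, -0.01, changes sign with the array left out.

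Gbp2b, a guanylate-binding protein that interferon induces, rose by 1.94 ± 0.080 (adjusted p = 8.2e-08). Its WT arrays read 5.37, 5.08 and 5.11, its Het arrays 7.11, 7.19 and 7.10, and its KO arrays 6.63, 6.58 and 6.81. The WT arrays lay below the low-value limit and both other lines above it. Ptprv, a receptor-type tyrosine phosphatase known from bone and testis, read 7.33, 7.35 and 7.35 in WT, 9.10, 9.23 and 9.03 in Het and 7.49, 7.58 and 7.58 in the KO line. It rose by 1.78 ± 0.053 (adjusted p = 7.6e-09), and here the KO line stood near the WT line. Npl, the lyase that breaks down sialic acid, read 8.42, 8.44 and 8.37 in WT, 9.47, 9.43 and 9.60 in Het and 6.95, 6.90 and 6.99 in the KO line. Its rise in Het was 1.09 ± 0.049 (adjusted p = 1.5e-07), while the KO line was lower than WT, so WT lay between the other lines. Npl was the only called gene among 21 measured genes of hexosamine and sialic acid metabolism. Of these 2 were higher and 10 lower at the adjusted p, with a median of -0.09. The genes of the first and rate-limiting step of the hexosamine pathway, Gfpt1 and Gfpt2, differed by -0.01 and 0.01.

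Actc1, the alpha-actin of heart and embryonic skeletal muscle, rose by 1.34 ± 0.054 (adjusted p = 8.1e-08). It read 6.84, 6.87 and 7.02 in WT, 8.21, 8.21 and 8.33 in Het and 8.61, 8.63 and 8.58 in the KO line. Klhl30, of the Kelch-like family, read 7.30, 7.10 and 7.38 in WT, 8.34, 8.35 and 8.44 in Het and 9.24, 9.21 and 9.10 in the KO line, and rose by 1.12 ± 0.069 (adjusted p = 1.4e-06). For both genes the Het line lay between WT and KO without overlap. The remaining gene that rose has a clone name, 2310030G06Rik, and is named here after its values were seen. It read 6.75, 6.66 and 6.89 in WT, 8.02, 8.14 and 8.12 in Het and 9.01, 9.11 and 9.10 in the KO line, a rise of 1.33 ± 0.061 (adjusted p = 1.6e-07).

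**Figure D3:**
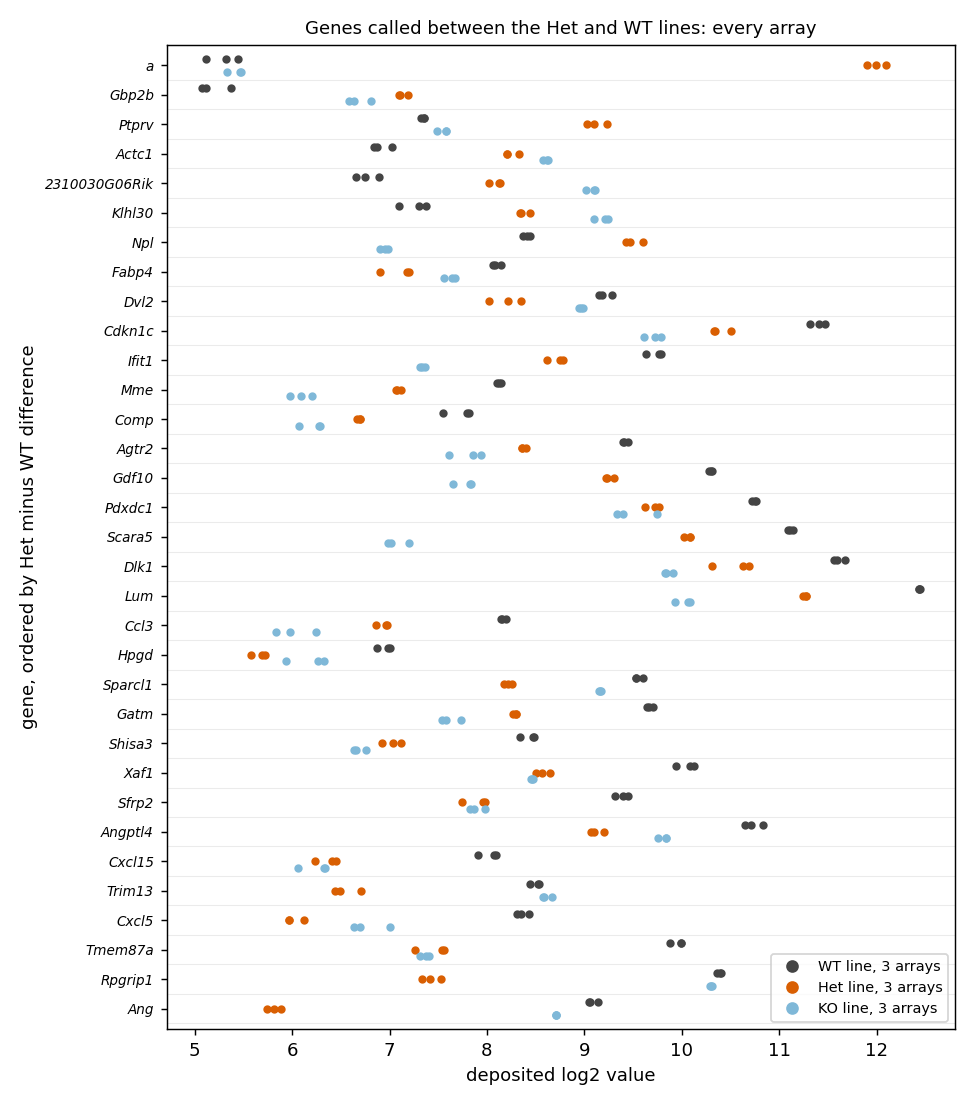
Deposited log2 values of the 33 called genes on all 9 arrays, ordered by the Het minus WT difference, with WT in dark grey, Het in orange and KO in light blue. WT and Het points never overlap; the KO points sit with WT for a, Trim13 and Rpgrip1, with Het for Sfrp2, Tmem87a and Cxcl15, and beyond Het for genes such as Scara5, Lum and Ifit1.

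Actc1 belonged to a wider group of muscle genes that were higher in the Het line. Of 22 measured genes of skeletal muscle, 16 were higher and 0 lower at the adjusted p, with a median of 0.37, but Actc1 alone was called. Short of 2-fold, the slow troponin gene Tnnc1 differed by 0.90 ± 0.068, the embryonic myosin light chain gene Myl4 by 0.85 ± 0.052 and Myog, the myogenin gene that drives myoblast differentiation, by 0.83 ± 0.047. Myog read 6.36 ± 0.039 in WT (SD, n = 3 arrays), 7.19 ± 0.067 in Het and 7.35 ± 0.052 in the KO line. The adult muscle creatine kinase gene Ckm differed by 0.09 and did not pass the adjusted p. Myod1, a determination factor of the lineage, had WT and Het means of 5.93 and 6.13, below the low-value limit. Of 31 genes in the list, 9 did not pass the filter on low values. Of the 22 that passed, 3 had a WT mean and 1 a Het mean below the limit. Such genes passed through the lines in which they were higher, which can favour counts of higher members.

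Smooth muscle and pericyte genes showed the same direction with smaller differences. At the adjusted p 17 of 20 were higher and 0 lower, with a median of 0.31, and none was called. Cnn1, which encodes calponin of the contractile apparatus, was highest at 0.80, and Mcam, an adhesion molecule of pericytes and smooth muscle, differed by 0.53. The mean log2 value over the list was 10.988 to 10.999 on the WT arrays, 11.27 to 11.35 on the Het arrays and 11.79 to 11.83 on the KO arrays, which do not overlap. In RNA from a whole culture, more cells of a type and more RNA per cell cannot be told apart, nor can fewer cells and less RNA.

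Genes of neural crest, glia and neurons were also higher, though none was called. Of 16 measured, 10 were higher and 2 lower at the adjusted p, with a median of 0.26. Erbb3, the neuregulin receptor of Schwann cell precursors, read 8.10 ± 0.087 in WT, 8.92 ± 0.063 in Het and 8.88 ± 0.058 in the KO line, a difference of 0.82 ± 0.054. Sox10 and Tubb3, defining markers of the glial and the neuronal side, differed by 0.69 and 0.74. L1cam, a neural adhesion molecule outside the list, had the largest positive difference among genes short of 2-fold, at 0.95 ± 0.065, with line means of 8.33 (WT), 9.28 (Het) and 9.36 (KO). Snap25, a synaptic protein gene, stayed below the low-value limit in both lines (3.84 and 3.85).

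The other genes nearest to 2-fold on the upper side came from several groups. AA467197, which the naming rule leaves out for its clone name and which was added after its values were seen, differed by 0.93 (adjusted p = 2.1e-05) and was called without Het replicate 1. Slc35f1, of a nucleotide sugar transporter family, differed by 0.91 ± 0.077, and Sfn, the epithelial 14-3-3 sigma gene, by 0.91 ± 0.056. Zbed6, a repressor derived from a transposon, differed by 0.89 ± 0.14, with a WT SD of 0.30, the widest of these. Col7a1, which encodes the anchoring fibril collagen of the skin basement membrane, read 10.25 ± 0.0021 in WT, 11.12 ± 0.043 in Het and 10.92 ± 0.029 in the KO line, a difference of 0.87 ± 0.038. Crip1, a LIM-domain protein gene, differed by 0.85 ± 0.065.

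The largest fall was that of Ang, which encodes angiogenin, a secreted ribonuclease that promotes vessel growth. It read 9.05, 9.05 and 9.14 on the WT arrays, 5.89, 5.75 and 5.81 on the Het arrays and 8.71, 8.70 and 8.71 on the KO arrays. The Het arrays lay below the low-value limit and the KO line just under WT. The difference was -3.26 ± 0.045 (adjusted p = 5.8e-12). This is the value of a probe set marked as shared by several transcripts. Another, marked for cross-hybridization, gave -3.14, and the only unmarked one gave -0.47 (adjusted p = 0.000116), so the size of the fall depends on the probe set. Rnase4, a ribonuclease of the same family that lies beside Ang, differed by -0.01 (adjusted p = 0.851).

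Rpgrip1, a ciliary protein gene best known from photoreceptors, fell by 2.96 on the log2 scale, with an SE of 0.049 (adjusted p = 2.5e-11). It read 10.40, 10.39 and 10.36 in WT, 7.33, 7.53 and 7.41 in Het and 10.30, 10.31 and 10.29 in the KO line. WT and KO did not differ past the adjusted p (0.166), and the Het line alone was low. Its other 3 probe sets were below the low-value limit in both lines and differed by -0.02, -0.02 and 0.16. Trim13, an E3 ubiquitin ligase of the endoplasmic reticulum membrane, read 8.54, 8.44 and 8.52 in WT, 6.50, 6.44 and 6.71 in Het and 8.57, 8.67 and 8.59 in the KO line. It fell by 1.95 on the log2 scale, with an SE of 0.066 (adjusted p = 2.1e-08), and again only the Het line was low. Trim13 and Ptprv, which moved in opposite directions, were the 2 called genes among 31 measured p53 targets. Of that list 9 were higher and 3 lower at the adjusted p (38.7%, against 34.4% of all genes). Of all genes 0.255% were called. The median of the list was 0.04 and changes sign when probe sets of a gene are averaged. Cdkn1a, the best known target, differed by 0.28.

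Tmem87a, a Golgi membrane protein gene, read 9.99, 9.99 and 9.88 in WT, 7.53, 7.56 and 7.26 in Het and 7.38, 7.31 and 7.40 in the KO line. It fell by 2.50 on the log2 scale, with an SE of 0.072 (adjusted p = 7.1e-09). The Het and KO lines were both low and did not differ past the adjusted p (0.330), at which 52.3% of all genes differed between these lines.

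Chemokine genes held 3 of the called falls. Cxcl5, a neutrophil attractant, read 8.34, 8.43 and 8.31 in WT, 5.97, 6.13 and 5.97 in Het and 6.70, 7.01 and 6.64 in the KO line, and fell by 2.34 on the log2 scale, with an SE of 0.087 (adjusted p = 4.0e-08). Cxcl15 of the same subfamily read 8.07, 7.90 and 8.09 in WT, 6.41, 6.23 and 6.45 in Het and 6.34, 6.06 and 6.32 in the KO line, a difference of -1.66 ± 0.084 (adjusted p = 3.6e-07). Ccl3, a macrophage-derived attractant, read 8.16, 8.20 and 8.15 in WT, 6.98, 6.97 and 6.86 in Het and 5.83, 5.98 and 6.25 in the KO line, a difference of -1.23 ± 0.085 (adjusted p = 2.9e-06). For all 3 genes both other lines lay below WT, and the Het mean of Cxcl5 lay under the low-value limit. Over the 25 measured chemokine ligands 1 was higher and 12 lower at the adjusted p, with a median of -0.21. Of the list 52% passed the adjusted p, against 34.4% of all genes, and 0.201% of all genes fell.

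In the order of genes along the chromosome Cxcl5 and Cxcl15 lie close together, separated by the platelet factor gene Pf4, which differed by -0.61. They are the only called genes that lie within 5 measured genes of another called gene. Cxcl1, the next gene beyond Cxcl15, differed by -0.09 at its most abundant probe set and by -1.13 at another. Around Ccl3 the nearest genes on both sides were lower as well, with Ccl6 at -0.92, Ccl9 at -0.81, Ccl4 at -0.62 and Wfdc17 at -0.68, while Ccl5 in the same cluster differed by 0.19 (adjusted p = 0.206). The lower values were thus shared by neighbours in these clusters but not by every member.

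Interferon-stimulated genes were mostly lower in the Het line, although Gbp2b rose. Of 47 measured, 2 were higher and 30 lower at the adjusted p, with a median of -0.32, and 1 rose and 2 fell. The fall of Xaf1 is in doubt because another of its probe sets, below the low-value limit, was called the opposite way at 3.18. Xaf1, a pro-apoptotic partner of the caspase inhibitor XIAP, fell by 1.48 on the log2 scale, with an SE of 0.054, at the probe set kept (adjusted p = 4.0e-08). That set read 9.94, 10.13 and 10.09 in WT, 8.51, 8.64 and 8.57 in Het and 8.45, 8.47 and 8.46 in the KO line. Ifit1, which binds viral RNA that lacks the host cap methylation, read 9.79, 9.63 and 9.76 in WT, 8.61, 8.78 and 8.75 in Het and 7.31, 7.34 and 7.37 in the KO line. Its difference of -1.02 ± 0.055 (adjusted p = 5.4e-07) is near the 2-fold limit. Ifit3, a partner of Ifit1 that lies beside it, differed by -0.97 ± 0.061, with line means of 9.45 (WT), 8.48 (Het) and 8.11 (KO). Ifit2, the next gene in that cluster, differed by -0.57. The 2 genes that flank Gbp2b and belong to its family, Gbp2 and Gbp3, differed by -0.48 and -0.36, opposite to Gbp2b.

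Promoters of such genes often carry an interferon-stimulated response element, the site of the factor complex that interferon activates. Its core was searched as GAAA, any 2 bases and GAAA again, on both strands, in the 250 bases before each start site of the RefSeq promoter table (GRCm38.p6). On the other strand the letters read TTTC, any 2 bases and TTTC. They were found in 978 of 32851 promoters (2.98%), in 304 of 10439 tested genes with an entry (2.91%) and in 14 of 36 genes of the interferon list with an entry (38.9%). The promoters shown are those of the called and near-called genes, since genes with and without the letters, and genes that went opposite ways, are among them. Each line covers bases -170 to -71 before the start on the plus strand, and capitals mark the matches.
Ifit1, chr19:34640719-34640818: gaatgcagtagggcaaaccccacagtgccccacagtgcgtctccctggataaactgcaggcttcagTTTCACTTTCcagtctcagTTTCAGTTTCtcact
Ifit3, chr19:34583359-34583458: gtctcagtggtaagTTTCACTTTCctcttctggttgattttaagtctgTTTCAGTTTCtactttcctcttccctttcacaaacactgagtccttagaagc
Gbp2b, chr3:142594677-142594776: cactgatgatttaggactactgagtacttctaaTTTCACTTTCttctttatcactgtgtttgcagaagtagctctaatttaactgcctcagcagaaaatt
Xaf1, chr11:72301459-72301558: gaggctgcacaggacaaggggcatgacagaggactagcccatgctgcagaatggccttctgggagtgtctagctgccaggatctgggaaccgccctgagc
Ifit1 and Ifit3 hold 2 matches each, starting at -104 and -85 and at -156 and -122, Gbp2b holds 1 at -137, and Xaf1 holds none. The letters were thus present both where the transcript was lower in Het (Ifit1, Ifit3) and where it was higher (Gbp2b), and absent from the window of Xaf1, whose probe sets disagree. A match is a run of letters, not a measured binding site.

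Markers of macrophages and blood cells were lower alongside the interferon and chemokine genes. Of 29 measured, 24 were lower and 0 higher at the adjusted p, with a median of -0.35, and none was called. Mrc1, the mannose receptor, differed by -0.84 and Cd68, a lysosomal macrophage protein, by -0.78. Other defining markers differed less, with Ptprc at -0.53, Mpeg1 at -0.49, Adgre1 at -0.35, Lyz2 at -0.24, C1qa at -0.18 and Csf1r at -0.04, the last not past the adjusted p. The mean log2 value over the list was 11.10 to 11.12 on the WT arrays, 10.69 to 10.76 on the Het arrays and 9.35 to 9.40 on the KO arrays. All 29 markers were above the low-value limit in both the WT and the Het line, and Cd163 was below it. The part of these cells in the lower chemokine, interferon, complement and lysosomal genes was not tested. Evi2a, a membrane protein gene named for a viral integration site in leukaemia, differed by -0.98 ± 0.040, with line means of 9.11 (WT), 8.14 (Het) and 7.18 (KO).

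Complement and lysosomal genes shared the direction without a call. Of 11 measured complement genes 2 were higher and 6 lower at the adjusted p, with a median of -0.16. C1s1 and C1ra, the proteases of the first complement component, differed by -0.99 and -0.86. C1s1 read 9.95 ± 0.033 in WT, 8.96 ± 0.12 in Het and 8.85 ± 0.090 in the KO line. Of 28 genes of lysosomes and autophagy 1 was higher and 16 lower, with a median of -0.13, led by the proton pump subunit gene Atp6v1a at -0.47 and Lamp2 at -0.38. Antigen presentation genes were 1 higher and 8 lower of 16, with a median of -0.15.

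Genes of fat cell differentiation were lower. Of 20 measured, 2 were higher and 11 lower at the adjusted p, with a median of -0.35, and 3 fell. That is 65% past the adjusted p, against 34.4% of all genes, of which 0.201% fell. Angptl4, a secreted inhibitor of lipoprotein lipase, read 10.65, 10.83 and 10.72 in WT, 9.10, 9.07 and 9.21 in Het and 9.84, 9.76 and 9.84 in the KO line, and fell by 1.61 on the log2 scale, with an SE of 0.055 (adjusted p = 2.2e-08). The Het line was the lowest of the lines. Dlk1, the preadipocyte factor that holds back fat cell differentiation, read 11.68, 11.59 and 11.56 in WT, 10.31, 10.63 and 10.69 in Het and 9.83, 9.84 and 9.91 in the KO line. It fell by 1.07, with an SE of 0.084 (adjusted p = 7.1e-06). Its difference was -0.95 without Het replicate 1 and -0.36 at its other probe set, both short of 2-fold. Fabp4, the fatty acid carrier of fat cells and macrophages, read 8.06, 8.15 and 8.08 in WT, 6.90, 7.18 and 7.20 in Het and 7.64, 7.56 and 7.67 in the KO line. Its difference of -1.004 ± 0.072 (adjusted p = 3.8e-06) is the call nearest to the 2-fold limit. The other 3 probe sets of Fabp4, below the low-value limit, gave -0.59, -0.04 and 0.03. The list thus holds both an inhibitor and a product of differentiation among its falls. Adipoq, Plin4, Lep and Pck1 of the list were below the low-value limit, with Adipoq at 4.12 in WT and 4.08 in Het. Angptl1, an angiopoietin-like relative outside this list, differed by -0.99 ± 0.092 and was the nearest gene outside the limit.

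Of the Wnt pathway, 2 listed genes fell, Sfrp2 and Shisa3. Sfrp2, which binds Wnt proteins outside the cell, read 9.39, 9.31 and 9.45 in WT, 7.74, 7.95 and 7.98 in Het and 7.98, 7.87 and 7.83 in the KO line. It fell by 1.49 on the log2 scale, with an SE of 0.068 (adjusted p = 1.5e-07). The Het and KO arrays overlapped and their means did not differ past the adjusted p (0.994). Shisa3, which retains frizzled receptors in the endoplasmic reticulum, read 8.47, 8.34 and 8.48 in WT, 6.92, 7.11 and 7.04 in Het and 6.63, 6.76 and 6.65 in the KO line. Its difference was -1.40 ± 0.060 (adjusted p = 1.0e-07) and -1.50 at its other probe set. Of 33 measured Wnt ligands, receptors, antagonists and targets 6 were higher and 11 lower at the adjusted p, with a median of -0.09. That is 51.5% past the adjusted p, against 34.4% of all genes, whose median was -0.01. Of all genes 0.201% fell. The antagonists Frzb, Dkk2 and Sfrp1, chosen after their values were seen, differed by -0.70, -0.63 and -0.60. Sfrp4 and Sfrp5 of the same family did not pass the adjusted p, at -0.16 and -0.0031. Dvl2, the dishevelled adaptor inside the cell, stood outside the list and read 9.28, 9.15 and 9.18 in WT, 8.02, 8.21 and 8.35 in Het and 8.96, 8.98 and 8.94 in the KO line. It fell by 1.01, with an SE of 0.072 (adjusted p = 3.6e-06), and its other probe set gave -1.61.

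Matrix genes split by kind. Lumican, the collagen-binding proteoglycan encoded by Lum, read 12.44 on all 3 WT arrays, 11.27, 11.27 and 11.24 on the Het arrays and 10.06, 10.09 and 9.93 on the KO arrays. It fell by 1.18 on the log2 scale, with an SE of 0.045 (adjusted p = 5.1e-08), and the lines stood in the order WT, Het, KO. All 9 measured small leucine-rich proteoglycans had negative differences, 6 of them past the adjusted p, with a median of -0.30. Comp, the cartilage oligomeric matrix protein gene, read 7.55, 7.79 and 7.81 in WT, 6.69, 6.66 and 6.69 in Het and 6.07, 6.27 and 6.29 in the KO line, a difference of -1.04 ± 0.075 (adjusted p = 3.9e-06). Col9a1, a collagen of cartilage fibrils, differed by -0.95 ± 0.078, with line means of 9.31 (WT), 8.35 (Het) and 6.46 (KO). Of 19 cartilage and bone genes 3 were higher and 8 lower at the adjusted p, with a median of -0.15, and Ptprv, described above, was the one that rose. The larger list of collagens and matrix proteins was 15 higher and 7 lower of 45, with a median of -0.01 whose sign depends on the probe sets chosen. Fibroblast markers had a median of -0.04, with 2 higher and 4 lower of 16 at the adjusted p and Lum as the only call. Negative differences were found for 13 of the 16 and positive ones for 3. The mean log2 value over the list was 12.87 to 12.88 in WT, 12.73 to 12.75 in Het and 12.38 to 12.44 in the KO line. Of the defining markers, the type I collagen genes Col1a1 and Col1a2 differed by -0.06 and -0.01, while Dcn and Pdgfra differed by -0.33 and -0.61. Differences in the whole list ran from -1.18 (Lum) to 0.45, and some defining markers are not named here.

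Sparcl1, a matricellular relative of osteonectin, read 9.53, 9.60 and 9.53 in WT, 8.26, 8.17 and 8.21 in Het and 9.16, 9.17 and 9.15 in the KO line. It fell by 1.34 on the log2 scale, with an SE of 0.039 (adjusted p = 7.1e-09), and was lowest in Het. Gdf10, a ligand of the TGF-beta family, read 10.28, 10.30 and 10.31 in WT, 9.22, 9.23 and 9.31 in Het and 7.65, 7.82 and 7.83 in the KO line, a difference of -1.04 ± 0.052 (adjusted p = 3.1e-07). Scara5, a scavenger receptor that takes up ferritin, read 11.09, 11.12 and 11.14 in WT, 10.02, 10.09 and 10.09 in Het and 7.20, 7.02 and 6.98 in the KO line. Its difference of -1.05 ± 0.055 (adjusted p = 4.1e-07) was the only call among 12 genes of iron handling, of which 1 was higher and 8 lower at the adjusted p, with a median of -0.18. Gdf10 and Scara5 both had a KO line far below the Het line, unlike Sparcl1.

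Mme, Agtr2 and Hpgd, genes with different roles, also fell. Mme, the membrane peptidase neprilysin, read 8.10, 8.12 and 8.14 in WT, 7.08, 7.12 and 7.07 in Het and 6.20, 5.98 and 6.09 in the KO line, a difference of -1.03 ± 0.052 (adjusted p = 3.2e-07). Agtr2, an angiotensin receptor of fetal mesenchyme, read 9.41, 9.44 and 9.40 in WT, 8.36, 8.40 and 8.36 in Het and 7.94, 7.85 and 7.61 in the KO line, a difference of -1.04 ± 0.069 (adjusted p = 2.2e-06). For both, the lines stood in the order WT, Het, KO without overlap. Hpgd, the dehydrogenase that inactivates prostaglandins, read 7.002, 6.87 and 6.99 in WT, 5.69, 5.57 and 5.72 in Het and 6.27, 6.33 and 5.93 in the KO line. It fell by 1.29 on the log2 scale, with an SE of 0.089 (adjusted p = 2.9e-06), to a Het mean under the low-value limit. It was the only call among 13 prostaglandin genes, of which 2 were higher and 2 lower at the adjusted p. Kcnj15, an inward rectifier potassium channel gene, differed by -0.96 ± 0.038, and Scg2, which encodes the neuropeptide precursor secretogranin, by -0.98 ± 0.072.

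Imprinted genes are expressed from the copy of 1 parent only. Of the 34 measured genes in the list of imprinted genes 3 fell, against 0.201% of all genes. Gatm, the first enzyme of creatine synthesis, whose imprinting is known from extraembryonic tissue, read 9.70, 9.66 and 9.64 in WT, 8.29, 8.29 and 8.26 in Het and 7.74, 7.53 and 7.58 in the KO line. It fell by 1.38 on the log2 scale, with an SE of 0.051 (adjusted p = 4.0e-08). Cdkn1c, the cyclin-dependent kinase inhibitor p57, read 11.47, 11.41 and 11.31 in WT, 10.34, 10.33 and 10.50 in Het and 9.79, 9.61 and 9.72 in the KO line. Its difference of -1.01 ± 0.064 (adjusted p = 1.6e-06) is 1 of the 3 nearest to the limit. Dlk1, described with the fat cell genes, is the third gene of this list that fell. Whether Gatm is imprinted in these cultures was not tested. Of the 34 genes 6 were higher and 12 lower at the adjusted p (52.9%, against 34.4% of all genes), with a median of -0.03. Meg3, which is transcribed from the other parental copy of the Dlk1 cluster, differed by 0.34, opposite to Dlk1.

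Among position genes of the limb, 1 was higher and 3 lower between 1.5-fold and 2-fold. The 3 listed transcription factors with the lowest values were Hand2, which patterns the posterior limb bud, at -0.98 ± 0.053, Lhx9 at -0.81 and Tbx4 of the hindlimb at -0.77. Hand2 read 8.81 ± 0.036 in WT, 7.83 ± 0.093 in Het and 8.18 ± 0.060 in the KO line. Of 30 such factors 5 were higher and 8 lower at the adjusted p, with a median of -0.04, and none was called. That is 43.3% past the adjusted p, against 34.4% of all genes, so the list as a whole lay near that share. Among 29 measured Hox genes 7 were higher and 5 lower (41.4% past the adjusted p), with a median of 0.08. The 2 largest differences were those of the distal genes Hoxa13 (-0.85) and Hoxd13 (-0.76). Col9a1, Mab21l1 at -0.96 ± 0.073 and Tox, a chromatin factor of lymphoid development, at -0.97 ± 0.073 completed the 10 genes nearest to 2-fold on the lower side.

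Growth and energy lists had medians between -0.10 and 0.06, against -0.01 for all genes. At the adjusted p 34.4% of all genes passed, 13.4% higher and 21% lower. Of 33 mitosis genes 10 were higher and 0 lower at the adjusted p (30.3% past it). Their median was 0.06 and the highest value, that of Cdc20, was 0.34. DNA replication genes were 7 higher and 4 lower of 34, with a median of 0.03. Oxidative phosphorylation was 6 higher and 6 lower of 41 (median -0.02), and glycolysis 2 higher and 2 lower of 21 (median 0.00), with signs that turn between settings for the last 3 lists. Cholesterol synthesis was 1 higher and 9 lower of 22 (45.5% past the adjusted p), with a median of -0.10. Hypoxia targets were 4 higher and 11 lower of 27 (55.6%), with a median of -0.08 and Angptl4 as their only call. Markers of cells less likely in such a culture gave no call: 3 erythroid and 5 hepatocyte genes were measured, 0 past the adjusted p, and of 7 endothelial genes 2 were higher and 1 lower. Of the defining endothelial markers Pecam1, Cdh5 and Tek were below the low-value limit in both lines, and Kdr differed by -0.02. For 23 of the 33 called genes there was a place in a list, and 10 were in none.

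**Figure D4:**
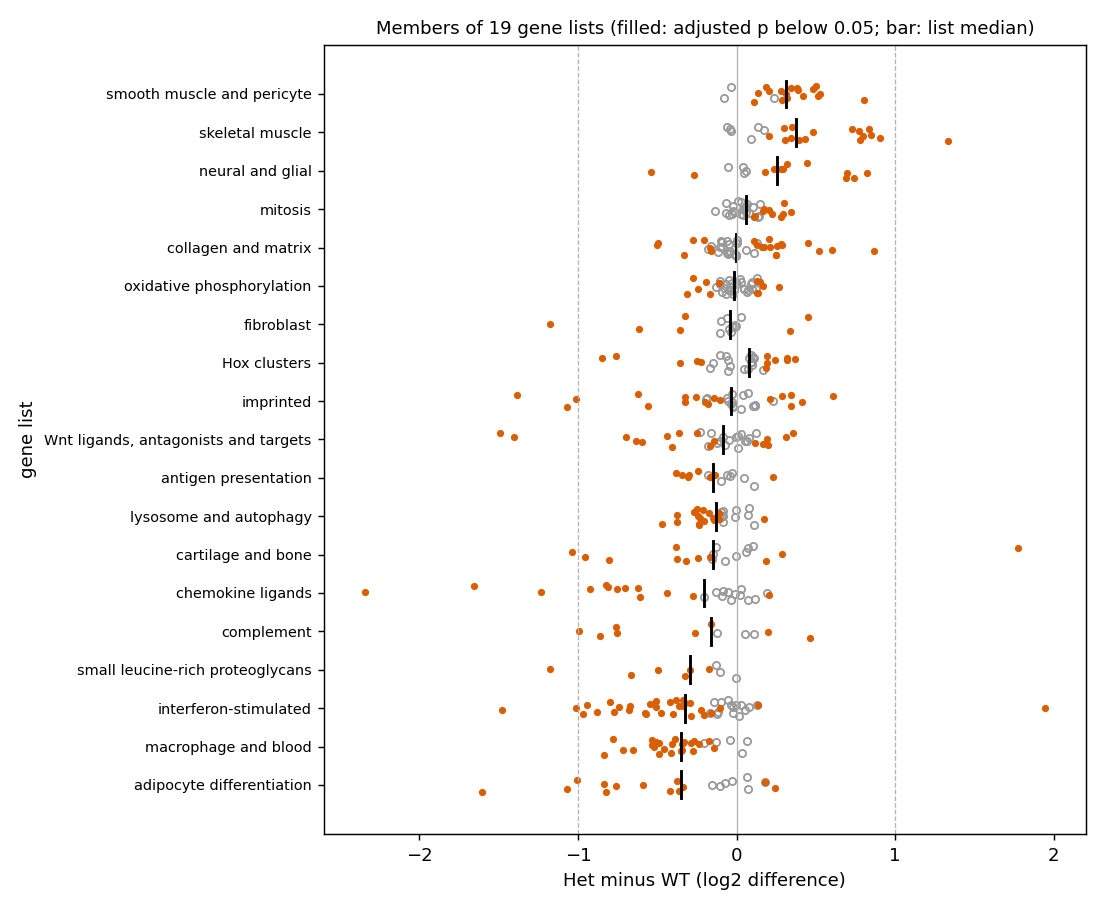
Het minus WT log2 difference of each measured member of 19 gene lists, filled where the adjusted p is below 0.05, with a bar at the list median and dashed lines at 2-fold. Smooth muscle (median 0.31) and skeletal muscle (0.37) lie to the right, adipocyte (-0.35), macrophage (-0.35) and interferon-stimulated genes (-0.32) to the left, while oxidative phosphorylation and collagen genes centre near 0.

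Genes with several probe sets did not always give 1 answer. Pdxdc1, a decarboxylase-like gene counted among the falls at -1.04 ± 0.089 (adjusted p = 1.3e-05), has 4 probe sets. The called one read 10.72, 10.75 and 10.76 in WT, 9.72, 9.62 and 9.77 in Het and 9.74, 9.40 and 9.33 in the KO line, and 2 others agreed in direction at -0.82 and -0.80. The fourth read 5.29, 5.92 and 6.51 on the WT arrays, 11.36, 11.38 and 11.38 on the Het arrays and 12.31, 12.26 and 12.23 on the KO arrays. Its difference of 5.46 ± 0.23 (adjusted p = 6.4e-07 among all probe sets) is the opposite way, and the mean over the probe sets rises by 0.70. Xaf1 also divides: its second probe set read 4.87, 4.71 and 4.82 in WT, 7.92, 8.005 and 8.02 in Het and 4.71, 4.63 and 4.86 in the KO line. That is 3.18 ± 0.068 higher in Het, against -1.48 at the probe set kept. The mean of this second set over the 9 arrays lies under the low-value limit. It also lies below the mean of the set kept, which therefore stood for the gene without the filter as well. No direction for the whole transcript of Pdxdc1 or Xaf1 follows from these arrays. They are the only genes called both ways among 9010 with several probe sets.

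Calls at less abundant probe sets added genes that the choice of 1 probe set per gene leaves out. Over all 45037 probe sets 111 were called (0.246%), 43 higher and 68 lower. Of these, 45 belonged to 43 named genes not called at their most abundant probe set, 11 genes higher and 32 lower, and at 35 of the 43 the most abundant set had the same sign. The genes named in this paragraph were chosen after their values were seen. Uqcr10, a subunit of respiratory complex III, read 8.48, 8.39 and 8.52 in WT, 5.96, 6.09 and 5.70 in Het and 8.49, 8.36 and 8.58 in the KO line at 1 probe set, a difference of -2.55, while its most abundant set differed by 0.07. Snx6, a retromer subunit gene, read 4.88, 4.69 and 4.78 in WT, 7.18, 7.38 and 7.47 in Het and 4.73, 4.73 and 4.65 in the KO line at a set below the low-value limit, a difference of 2.56, against 0.03 at its most abundant set. In both genes the Het line alone stood apart, and no other probe set of theirs passed the adjusted p.

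Other genes differed in size between their probe sets. Scd2, a fatty acid desaturase gene, read 12.99, 13.02 and 13.03 in WT, 11.55, 11.25 and 11.23 in Het and 9.92, 9.43 and 9.32 in the KO line at 1 set, while its most abundant set differed by -0.0042 between Het and WT. Cuedc1 differed by 1.80 at 1 set and by 0.38 at its most abundant, and Dynll1, a dynein light chain gene, by 1.58 against 0.15. Gja1, the connexin 43 gene, differed by -1.15 against -0.16, Sfrp1 by -1.39 against -0.60 and Frzb by -1.22 against -0.70. The Pdgfra, Ccl9 and Arsk genes kept 1 direction, at -1.11 against -0.61, -1.08 against -0.81 and -2.08 against -0.62. Among the Wnt genes these probe sets add calls for Sfrp1 and Frzb, and among the chemokines for Ccl9, Cxcl1 (-1.13, against -0.09) and Ppbp. The only probe set of Ppbp, a platelet chemokine gene, lies below the low-value limit over the 9 arrays and differed by -1.58, with means of 6.75 in WT and 5.17 in Het. Among the 33 called genes themselves, 28 had no other probe set past the filter, and for 4 of the other 5 all such sets had the same direction.

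**Figure D5:**
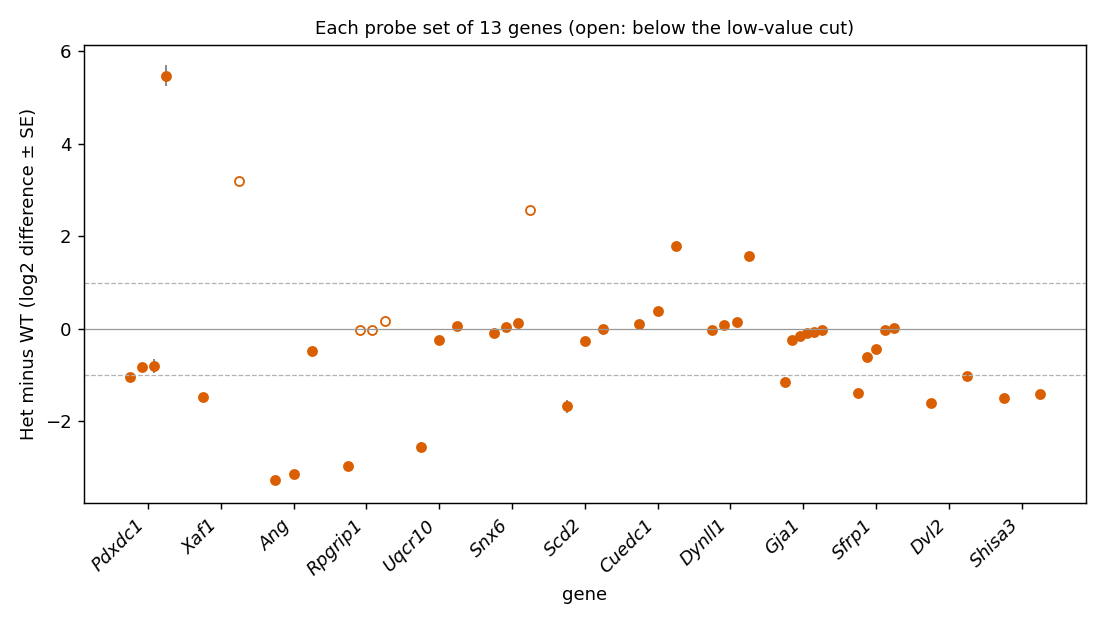
Het minus WT log2 difference, with its SE, at each probe set of 13 genes; open points are probe sets below the low-value limit, and the dashed lines mark 2-fold. Probe sets of Dvl2 and Shisa3 lie together below the lower line, those of Pdxdc1 and Xaf1 lie on both sides (5.46 and 3.18 at the top), and Uqcr10, Snx6 and Rpgrip1 have a single probe set far from the rest.

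Within a window of 5 measured genes on each side, called genes mostly stood alone along the chromosomes. Among the 5 measured genes on each side of the 33 called genes, in the order of the RefSeq gene table, 2 of 330 entries were called, those of Cxcl5 and Cxcl15 for each other, and 14 lay between 1.5-fold and 2-fold. Of these entries 38.5% passed the adjusted p, against 34.4% of all genes. The 10 neighbours of a differed by -0.11 to 0.23, those of Rpgrip1 by -0.16 to 0.47 and those of Ang by -0.91 to 0.18. Ang and Rpgrip1 lie just outside the window of each other, and both were lowest in the Het line. Mettl17, Ndrg2, Arhgef40 and Zfp219, which are neighbours of both, differed by 0.10, 0.15, 0.18 and 0.05. The 10 neighbours of Oga itself differed by -0.11 to 0.12, and 1 passed the adjusted p. Hand2 lies 3 measured genes from Hpgd, and both were lower.

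Which genes count as called near the limit is a matter of hundredths. Just inside 2-fold were Fabp4 (-1.004, 2.01-fold), Dvl2 (-1.01) and Cdkn1c (-1.01), and just outside were Angptl1 (-0.99), C1s1 (-0.99) and Hand2 (-0.98). Leaving out WT replicate 1 took Cdkn1c, Dvl2 and Ifit1 under the limit, at -0.97, -0.97 and -0.98. Without WT replicate 2 this held for Comp and Fabp4 (-0.9993 and -0.98), and without WT replicate 3 for Comp and Ifit1 (-0.99 and -0.9975). Without Het replicate 1 the most calls were lost: Cdkn1c, Dlk1, Dvl2, Fabp4 and Ifit1 stood at -0.98, -0.95, -0.92, -0.91 and -0.97. Without Het replicate 2 Cdkn1c stood at -0.98. Calls were added as well, 4 without WT replicate 1 (Zbed6, L1cam, Ifit3 and Evi2a), 3 without WT replicate 2, 2 without WT replicate 3, 2 without Het replicate 1 and 4 each without Het replicate 2 or 3. No call was lost without Het replicate 3 or any KO array. The 10 genes that reached 3-fold, 3 higher and 7 lower, kept their calls with each array left out.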

How the data were processed

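RNA of 3 MEF lines was measured on 9 arrays, 3 per line. Trizol extraction, a DNase step and biotin labelling are given in the labels' protocols. The authors deposited log2 values for 45101 probe sets. GCOS and Partek are named in the submitters' processing notes, and the normalization and summarization are not given in the sources used here. The base of the logarithm was read from the range of the values, 3.25 to 15.1. Array medians lay between 6.87 and 6.92 on the WT arrays and between 6.93 and 6.95 on the Het arrays, without overlap. Values were used as deposited, and the split by direction after centring is given above. The 64 controls were left out. Symbols came from GEO's platform annotation: 34945 probe sets had 1 symbol, 932 several and 9160 none, and 34741 matched the RefSeq gene table (GRCm38.p6). A filter removed the lowest 40% of probe sets by their mean on all arrays (below 6.22), and the most abundant probe set stood for a gene, giving 12962 genes. A gene low in 1 line could thus pass through the lines in which it was high.

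Differences were fitted with limma 3.58.1 (lmFit and eBayes, R 4.3.3) on all 9 arrays, with the KO arrays adding to the estimate of spread. Single probe sets of Oga, Ogt, Eogt and of genes with diverging probe sets were tested in a fit of all 45037 probe sets. Simulated differences of 1.5 on the log2 scale were called in 50 of 50 genes, those of 1 in 24 of 50, and 0 of 12762 unchanged genes were called. The simulation drew independent normal noise at the spread between arrays of each gene, with no other difference between lines. It therefore does not cover differences between lines that are unrelated to genotype. Named were Oga and Ogt, every called gene and the 10 genes per direction nearest to 2-fold from 1.5-fold up (clone names by count only, with 2310030G06Rik and AA467197 added after their values were seen), up to 4 called (or 2 largest) members per list, defining cell type markers and neighbours of called genes, and any other gene in the text (such as Gfpt1, Cdkn1a or Meg3) was chosen after its values were seen. The comparison and the 46 lists were chosen with earlier results of these data known, and a list is described by counts and its median, with no test. Precision is limited by the number of arrays and by having 1 line per genotype.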

Additional observations from a re-analysis of the deposited data

How the results depend on the processing

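The number of called genes stayed between 30 and 37 when 1 array was left out at a time, against 33 with all arrays. It was 32 after quantile normalization (30 of them shared), 40 after median centring, 36 without the filter on low values and 23 with the lowest 60% left out, which removes 10 called genes including a and Gbp2b before any test. Other fold minimums set the count by construction: 236 at 1.5-fold (70 higher, 166 lower) and 10 at 3-fold (3 higher, 7 lower). Against a 1.2-fold minimum within the test, 412 genes passed the adjusted p in place of 4458, and all 33 calls stayed. Averaging probe sets turned Pdxdc1 to 0.70 and lost Dlk1. Preferring unmarked probe sets lost Ang (-0.47) and Dlk1. Oga kept its direction and its adjusted p under all 13 alternatives computed for it.

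Labels give the arrays of both lines the numbers 1 to 3. Deviations of same-numbered WT and Het arrays correlated at -0.07, -0.08 and -0.18, so the numbers do not pair the arrays. Pairs with different numbers correlated at -0.09 to 0.19. The highest were WT 3 with Het 1 (0.19), WT 2 with Het 3 (0.17) and WT 1 with Het 2 (0.15). What these pairs share was not tested. A fit with the replicate number as a block called the same 33 genes, with 4255 past the adjusted p.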

Other observations

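Probe sets without a gene symbol went more often up than down. Of 9160 such probe sets 28 were called (0.306%), 23 higher and 5 lower in Het, while of 34945 with 1 symbol 83 were called (0.238%), 20 higher and 63 lower. What they detect is not given in the annotation used here, and the difference in direction was not tested.

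Chromosome medians of the Het minus WT difference lay between -0.06 and 0.02. Chromosome 14 held 5 called genes among 427 (Ang, Rpgrip1, Trim13, Gdf10 and Scara5, all lower), and chromosomes 4, 6, 13, 15 and 18 held 0. Of all genes tested 0.255% were called, 0.054% higher and 0.201% lower, and the spread over chromosomes was not tested.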
